A study of Rattus norvegicus with 16 samples.

Results

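Lpar4 encodes LPA4, a receptor on the cell surface for the lipid messenger lysophosphatidic acid (LPA) and the gene targeted in the knockout rats of the study. It was examined as 1 gene ID, ENSRNOG00000002428, of 30560 in the deposited table, across 16 poly(A) RNA libraries. The libraries were made from lumbar spinal dorsal horn, where sensory fibres of the hind limb end, 28 days after surgery. The groups were LPA4-KO rats with spared nerve injury (KO SNI), LPA4-KO rats with a sham operation (KO sham), wild-type rats with spared nerve injury (WT SNI) and wild-type rats with a sham operation (WT sham), with 4 libraries in each. Spared nerve injury is a surgical model of neuropathic pain in which some branches of the sciatic nerve are cut and one is left intact. The strain, sex and age of the rats, the way the knockout allele was made and whether every library is from its own rat are not stated in the labels. P-values thus speak of spread among these libraries, which may be technical. The 4 KO sham samples carry "WT" in their titles where the others name the operation. They were taken as KO sham from the column headers of the count table and from the series design, which names sham and SNI as the operations.

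The ID was chosen from its own counts. No other ID combined 0 counts in each of the 8 KO libraries with 10 or more in each of the 8 WT libraries. The files pair no ID with a gene symbol, and 0 of the 30560 IDs were matched in the reference gene table, so the name Lpar4 rests on the rule that chose the ID and on this pattern, and no other source used here pairs the ID with the name. For the same reason the labelled tissue was not checked against cell type markers, and the other LPA receptors, the enzymes that make and break down LPA and the genes of its downstream signalling were not tested. Total counts per library ran from 15790243 to 28090152. WT sham replicate 2 and KO SNI replicate 1 stood apart, with median correlations of 0.949 and 0.973 to the other libraries on the log2 scale, against 0.980 to 0.987 in the remaining 14.

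LPA acts outside cells. Much of it is made from lysophosphatidylcholine by autotaxin, a secreted enzyme, and it is removed by lipid phosphate phosphatases. Its receptors are G protein-coupled and fall into an Edg branch (LPA1, LPA2 and LPA3) and a branch closer to the purinergic P2Y receptors (LPA4, LPA5 and LPA6). LPA4 is known to couple to G proteins that raise cyclic AMP, and in mice it is known for roles in blood and lymphatic vessels. LPA signalling in pain after nerve injury is best known in mice for LPA1.

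The reference table lists 6 Lpar genes in the rat. Lpar4 lies on chromosome X, while Lpar1 is on chromosome 5, Lpar2 on 16, Lpar3 on 2, Lpar5 on 4 and Lpar6 on 15. Its nearest protein-coding neighbours in the RefSeq annotation of the assembly GRCr8 are Rtl3, Rpl24l1 and LOC100359656 on one side and P2ry10, P2ry10b and Gpr174 on the other. P2ry10 and Gpr174 encode receptors for another lysophospholipid, lysophosphatidylserine. The counts of these neighbours were not analysed here, because their IDs are not paired with names. The 250 bases directly before the annotated start of Lpar4, from RefSeq (GRCr8, chrX:76106069-76106318, plus strand), are shown as the sequence next to the annotated start of the targeted gene; where transcription starts in these libraries was not measured. This build differs from mRatBN7.2, which the submitters' processing notes name. Capitals mark matches to the CCAAT box (CCAAT, or ATTGG on the other strand) and to the GC box (GGGCGG, or CCGCCC), and 1 CCAAT match shares bases with the GC box.

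Lpar4 upstream: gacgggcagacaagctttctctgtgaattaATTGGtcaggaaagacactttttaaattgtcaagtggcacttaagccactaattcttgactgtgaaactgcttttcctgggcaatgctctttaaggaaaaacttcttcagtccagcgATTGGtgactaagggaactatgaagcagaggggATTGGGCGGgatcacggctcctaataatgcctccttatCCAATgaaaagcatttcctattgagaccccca

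The window held 4 CCAAT matches. The start of the last lay 32 bases before the annotated start of the gene, and the first lay 220 bases before it. At least 1 match was found in 34.0% of 33469 rat promoter windows of the same length, and at least 4 in 0.565%. The GC box matched once, as it did at least once in 30.5% of windows. Neither the TATA box (TATAAA or TTTATA, in 12.9% of windows) nor the cyclic AMP response element (TGACGTCA, in 1.59% of windows) had a match in the letters of the window. The 4 motifs were picked after the sequence had been read, and a match is a run of letters and not a measured binding site. The window was 44.0% G and C, against a median of 51.2% over all windows.

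Lpar4 RNA was not detected in the knockout and was at an even level in wild type. It had 0 counts in each of the 4 KO SNI libraries and in each of the 4 KO sham libraries. In WT SNI it had 90, 93, 113 and 80 counts in replicates 1 to 4, and in WT sham it had 112, 65, 108 and 81. The KO and WT libraries therefore did not overlap, which is how the gene was chosen, and no test of that difference is given. Summed over the libraries, 0 of 186795186 counts fell on Lpar4 in KO, against 742 of 172720470 counts in WT. At the WT level the KO libraries would have held 804 counts. A count of 0 allows up to 3 counts over the 8 KO libraries, or 0.0160 counts per 1000000 library counts (CPM), against 4.29 CPM in WT over the 8 libraries together. On that floor, and with the WT level taken as exact, the KO level was at least 268-fold lower. This describes the counts that chose the ID and is not a test. The floor covers counting error only. All 16 values of this ID were whole numbers, 8 of them 0, as were 96.4% of all values in the table.

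**Figure D1:**
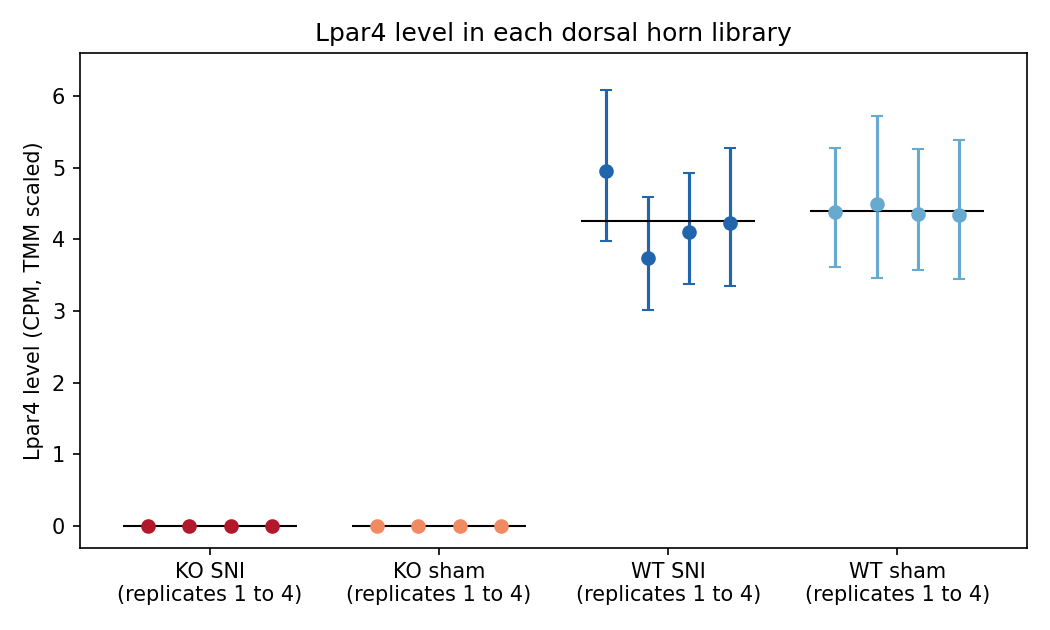
Level of Lpar4 in each library, in CPM scaled by the TMM method, by group and in the order of replicates 1 to 4. Points are libraries, vertical bars are exact 95% Poisson intervals that cover counting error only, and horizontal lines are group means. The 8 KO libraries are at 0 counts and have no bar, and the 8 WT libraries lie between 3.74 and 4.95 CPM with intervals that all overlap.

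That Lpar4 stood alone in this pattern is the rule by which it was chosen and not a result. The rule searched 13770 IDs with at least 10 counts in every WT library. With a threshold in WT of 5, 2 or 1 counts in every library it would have given the same 1 ID, and its mirror image, at least 1 count in all KO and 0 in all WT libraries, was found for 0 IDs. Just outside the rule, the ID with the next highest sum among those at 0 in KO had 22.2 counts over all 8 WT libraries, at most 6.77 in any, and was above 0 in 5 of them. Among IDs with at least 10 counts in every WT library, the next lowest level in KO relative to WT was 0.192. That ID had 77 to 326 counts in the KO libraries, and its ratio is set against 4220 counts in WT sham replicate 2, one of the libraries that stood apart.

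**Figure D2:**
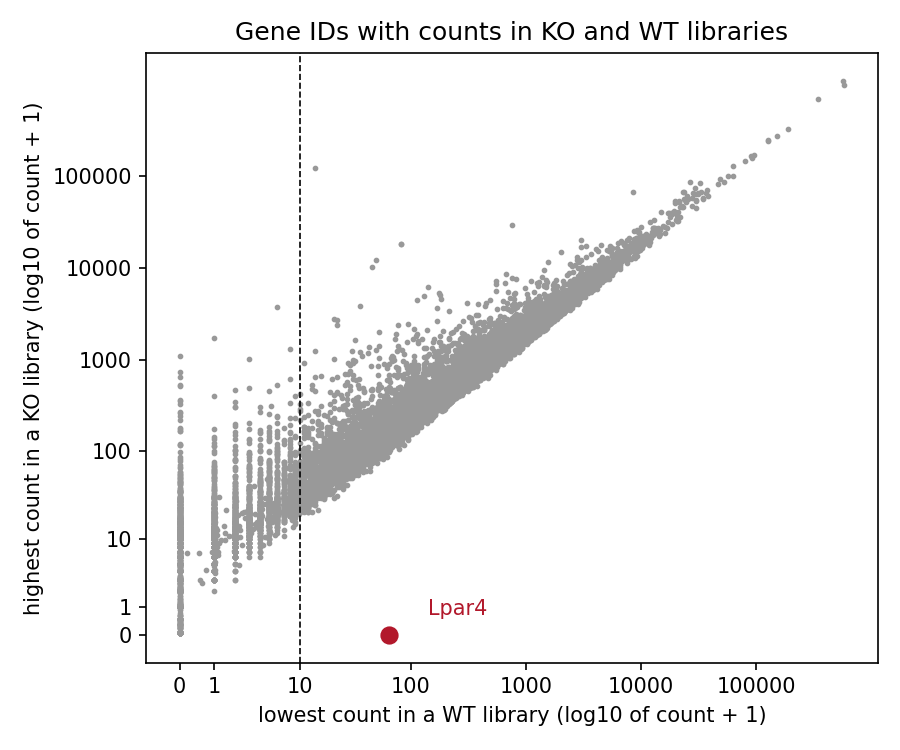
Highest count in any KO library (vertical axis) against the lowest count in any WT library (horizontal axis), both as log10 of the count plus 1. Gene IDs are shown where the highest KO count or the lowest WT count is above 0. The dashed line marks 10 counts. Lpar4, with a highest KO count of 0 and a lowest WT count of 65, is the only point on the lower edge to the right of the line.

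In wild type, the level of Lpar4 28 days after nerve injury was not distinguishable from its level after sham. It was 4.95, 3.74, 4.10 and 4.23 CPM in WT SNI replicates 1 to 4, and 4.39, 4.49, 4.36 and 4.34 CPM in WT sham replicates 1 to 4. WT SNI held both the highest and the lowest of the 8 values, and all 4 WT sham values lay between them. The means were 4.26 ± 0.508 CPM in WT SNI and 4.39 ± 0.0679 CPM in WT sham (SD, n = 4 each). The WT sham SD was 1.54% of its mean, below the 10.4% that counting alone gives at the mean WT count. It is therefore too small to be read as the spread of Lpar4 after sham. The log2 fold change, SNI over sham, was -0.05 (SE 0.16, 95% confidence interval -0.40 to 0.31, edgeR quasi-likelihood adjusted p = 0.998 over all 15237 genes tested). That interval runs from 0.756-fold to 1.24-fold, so a fall to below 0.756 of the sham level or a rise to above 1.24 times that level lies outside it, and smaller changes in either direction remain within it. An exact two-sided permutation test of the log2 CPM values over the 4 SNI and 4 sham libraries gave p = 0.60, where 70 arrangements allow no p below 0.0286. Among all genes, this comparison called 12 (0.0788%), a call being an adjusted p under 0.05, and all 12 were higher after SNI. The direction of the small difference in Lpar4 rested on 1 library, since without WT SNI replicate 2 the log2 fold change was 0.01 (edgeR adjusted p = 0.999).

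WT sham replicate 2, which stood apart over all genes, did not stand apart in Lpar4. Its 65 counts were the fewest of any WT library, from the smallest total, and corresponded to 4.49 CPM (exact 95% Poisson interval 3.47 to 5.72). Without scaling by TMM it was at 4.12 CPM, and WT sham replicates 1, 3 and 4 were at 4.33 to 4.46 CPM. Without it, the log2 fold change, WT SNI over WT sham, was -0.04 (95% confidence interval -0.45 to 0.37, edgeR adjusted p = 0.976). These are values of bulk tissue, in which fewer cells that express a gene and less of its RNA per cell cannot be told apart. In KO both operations were at 0 counts, so an effect of injury on Lpar4 there, and its difference from that in WT, could not be estimated.

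**Figure D3:**
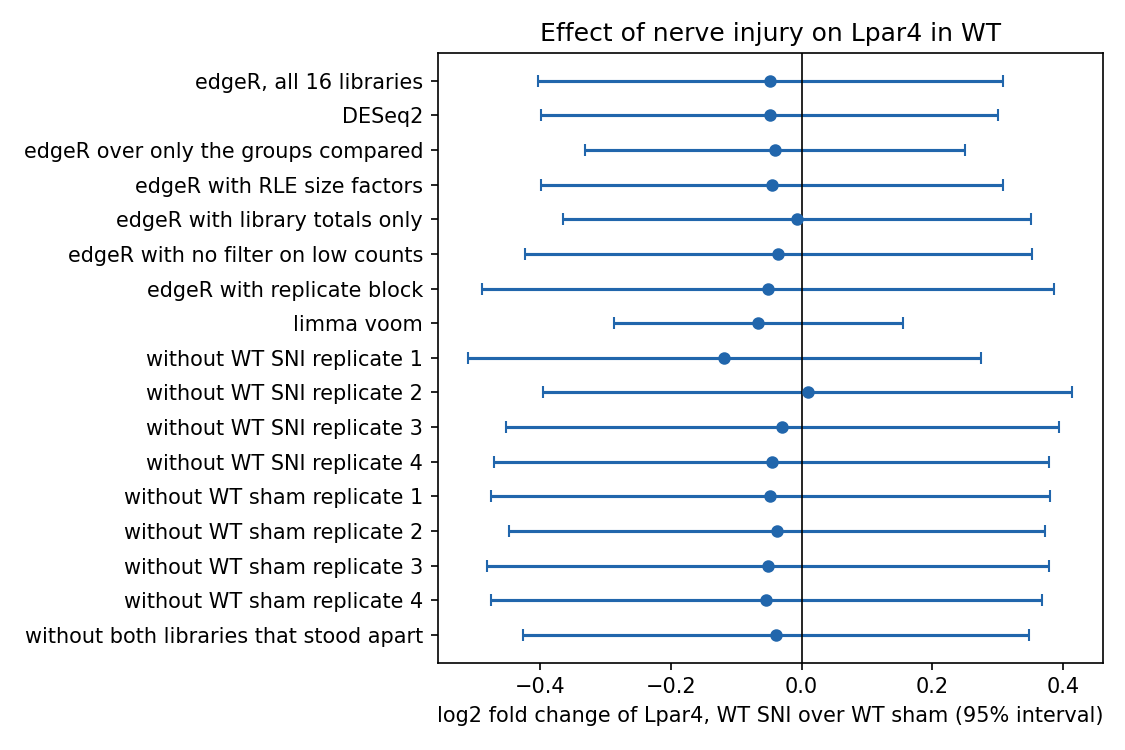
Log2 fold change of Lpar4, WT SNI over WT sham, from the edgeR fit to all 16 libraries and from other tools, scalings, filters and sets of libraries. Points are estimates and bars are 95% confidence intervals. Every interval shown includes 0, and the estimate is above 0 only without WT SNI replicate 2.

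The spread of Lpar4 between WT libraries was no larger than counting noise. The coefficient of variation of the 8 CPM values was 7.95%, while counting alone gives 10.4% at the mean of 92.8 counts per library. The variance of its counts within WT SNI and WT sham, divided by the variance that counting alone gives, was 0.636. Over 1255 other genes with mean WT counts of 60 to 120, the median of this ratio was 3.22, and 3.11% of them lay below Lpar4. Without WT sham replicate 2 the ratio was 0.754 for Lpar4, the median of the other genes was 2.51 and 7.81% lay below. The ratio was 1.25 in WT SNI and 0.0168 in WT sham, each from 4 libraries, and whether the spread differed between operations was not tested. Differences between single WT libraries in Lpar4 were therefore not detectable at this depth.

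**Figure D4:**
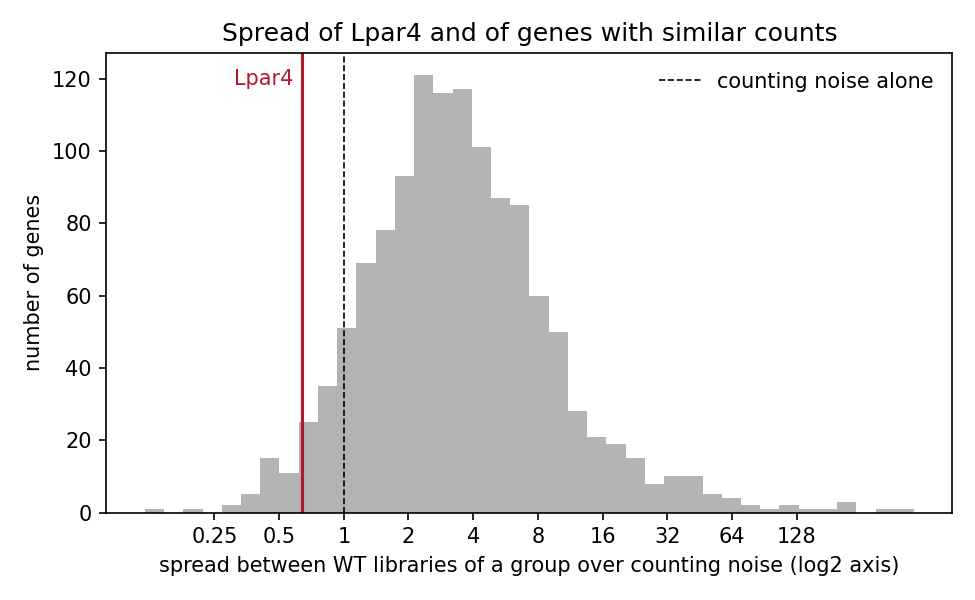
Variance between WT libraries of the same operation divided by the variance expected from counting alone (horizontal axis, log2 scale), for 1255 genes with mean WT counts of 60 to 120; bars give the number of genes. The red line marks Lpar4 at 0.636, left of the dashed line at 1, where counting noise alone would place a gene, and left of the median of 3.22.

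The genes whose levels followed Lpar4 most closely were looked for separately within WT and over both genotypes. Over the 8 WT libraries, Pearson's r of log2 CPM with Lpar4 had a median of -0.02 over the 15236 other genes, was above 0.9 for 13 and below -0.9 for 4. The highest was ENSRNOG00000067589 (r = 0.995, Spearman correlation 1.0), and it was 0.992 over the 6 libraries left without WT SNI replicates 1 and 2, which lay farthest from the median of Lpar4. That ID was at 46.7 ± 3.63 CPM in WT SNI and 47.4 ± 0.298 CPM in WT sham (SD, n = 4 each). It did not follow Lpar4 into the knockout, where it was at 44.3 ± 1.24 CPM in KO SNI and 46.8 ± 1.28 CPM in KO sham. The next 4 genes by r in WT had 0.928 to 0.978, and 0.460 to 0.832 without those 2 libraries. These correlations describe 8 libraries in which Lpar4 varied within counting noise, and they were the highest of many. The 6 libraries are among the 8 that ranked the genes, so the values over them are not an independent check.

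Over all 16 libraries, where the difference between genotypes sets the pattern of Lpar4, the closest gene was ENSRNOG00000006846 (r = 0.785, Spearman correlation 0.732). It was scarce, at 0.331 ± 0.0429 CPM in KO SNI and 0.248 ± 0.0385 CPM in KO sham, against 0.435 ± 0.0376 CPM in WT SNI and 0.528 ± 0.149 CPM in WT sham (SD, n = 4 each). Its KO SNI values reached 0.385 CPM, as high as the lowest WT SNI value, also 0.385 CPM, and above WT sham replicate 4 at 0.375 CPM. Its counts ran from 4 in KO sham replicate 4 to 17 in WT sham replicate 3. The gene was picked for following the genotype pattern of Lpar4, so its difference between genotypes is not independent of that choice. Averaged over operations its log2 fold change, KO over WT, was -0.73 (SE 0.19), and edgeR did not call it (adjusted p = 1.0). Within the 8 WT libraries its r with Lpar4 was -0.02.

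Beside Lpar4, 1 gene was called between genotypes. Averaged over operations, with 8 libraries on each side, KO against WT called 2 of 15237 genes (0.0131%), 1 higher and 1 lower. The lower one was Lpar4 itself, which was chosen on this contrast, and nothing is read from its call. The other was ENSRNOG00000070277, to which the files give no name. It was at 10.8, 13.01, 11.1 and 11.99 CPM in KO SNI replicates 1 to 4 and at 11.2, 14.7, 12.2 and 11.3 CPM in KO sham. In WT SNI it was at 6.16, 5.79, 6.02 and 6.77 CPM, and in WT sham at 7.88, 7.25, 7.59 and 6.37 CPM. The lowest KO library thus lay above the highest WT library. The gene was picked by its call in this contrast, so that separation adds no independent support. How many other genes separate in the same way was not counted. The log2 fold change, KO over WT, was 0.84 (SE 0.08, 95% confidence interval 0.68 to 1.005, edgeR adjusted p = 8.17e-05), or 1.79-fold, and it was called in all 23 alternative fits run, with adjusted p up to 0.0013.

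Taken by operation, ENSRNOG00000070277 was 0.92 higher in KO than in WT after SNI (SE 0.11, edgeR adjusted p = 0.00246) and 0.76 higher after sham (SE 0.11, edgeR adjusted p = 0.0274), on the log2 scale. Both comparisons also called 2 genes (0.0131%), Lpar4 and this one. The call after sham was lost without any of WT sham replicates 1 to 4, WT SNI replicates 1 or 3, KO sham replicates 2 to 4 or KO SNI replicates 3 or 4, with edgeR adjusted p of 0.05001 to 0.163, while the log2 fold change in those fits stayed at 0.67 to 0.80. It was also lost without WT sham replicate 2 and KO SNI replicate 1 together (edgeR adjusted p = 0.1004) and over only the 8 sham libraries (edgeR adjusted p = 0.934). The log2 fold change of this gene, SNI over sham, was -0.24 in WT and -0.07 in KO, and neither was called (edgeR adjusted p = 0.998 and 0.995). Only the point estimate of the fall was smaller in KO. The KO value minus the WT value was 0.16 (95% confidence interval -0.16 to 0.49, edgeR adjusted p = 0.978). No difference of the genotype effect between the operations was therefore shown. Without adjustment, 257 genes (1.69%) had p under 0.05 in the averaged comparison, a smaller share than the 0.05 that chance alone would give. By operation, the share was 1.23% after SNI and 3.89% after sham. These shares do not point to further differences, and the small number of calls does not show that there are none. With 8 libraries a side, the standard errors of the log2 values had a median of 0.09 over all genes.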

How the data were processed

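The authors deposited 1 table of expected counts, estimated read counts per Ensembl gene ID that need not be whole. Libraries were poly(A) RNA made with a stranded TruSeq kit, per the labels' protocols. Per the submitters' processing notes, the build was mRatBN7.2 and the tools included RSEM 1.3.1, STAR 2.7.9a and fastp 0.22.0, with no role stated. The annotation release and the strand setting were not given in the sources used here. Reads shared by similar genes are divided among them in expected counts, so genes with close copies are less certain.

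Counts were rounded to whole numbers and filtered with filterByExpr (minimum count 10), which left 15237 genes. All 16 libraries entered 1 quasi-likelihood fit in edgeR 4.0.16 (R 4.3.3), with TMM scaling and 1 mean for each group. Adjusted p-values follow Benjamini and Hochberg and cover every gene tested. CPM values are TMM-scaled, and log2 CPM used a prior count of 2. CPM is not per length, so levels were not compared between genes. DESeq2 1.42.0, limma 3.58.1 (voom), other scalings, no filter, a replicate block and leaving out each library were alternatives. The model was tested on simulated counts. Named genes were to be Lpar4, the genes of LPA lists, others called between genotypes, and those with the highest Pearson correlation to Lpar4 over the 8 WT and over all 16 libraries. The lists could not be matched to IDs and were not run, and only the first gene of each correlation ranking is named. Deviations of libraries from different groups correlated over 0.1 in 6 of 24 same-numbered pairs and in 21 of 72 other pairs. The median correlations were 0.04 and 0.005. The numbers were therefore not taken to pair libraries. The gene, the lists and the comparisons were chosen with earlier results of these data known.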

Additional observations from a re-analysis of the deposited data

How the results depend on the processing

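The log2 fold change of Lpar4, WT SNI over WT sham, stayed between -0.12 and 0.01 under 25 alternatives, and none called it (edgeR, DESeq2 and limma voom adjusted p from 0.966 to 1.0, exact permutation p = 0.60). Its sign turned under 1 of them, to 0.0096 without WT SNI replicate 2, and leaving out single libraries gave -0.12 to 0.0096. With the replicate number as a block it was -0.05 (edgeR adjusted p = 0.998). KO against WT after sham called 2 genes, against 4 with DESeq2 (2 higher, 2 lower), and 1, lower, with the replicate block, over only the groups compared and without both libraries that stood apart. Leaving out single libraries gave 1 to 2. The cause was not tested. The replicate block ended the call of ENSRNOG00000070277 after sham (edgeR adjusted p = 0.152) and did not change its other calls. Lpar4 in WT was not called with or without the block. The block fit covered every gene tested, but for other genes only the counts called between genotypes were kept. KO against WT after SNI and averaged over operations called 2 to 3 genes throughout. The planned counts over LPA gene lists were not run, because no ID was paired with a symbol. The alternatives for the counts between genotypes and for ENSRNOG00000070277, and leaving out both of those libraries were added after the data were seen. With 65 to 113 counts in a WT library, depth limits what can be seen in Lpar4.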
